A study of Mus musculus with 18 samples.

Results

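Genes that mark the choroid plexus, the thalamus and the striatum were followed through microarrays of hippocampus, skeletal muscle and heart, since these brain regions border the hippocampus or lie near it in a dissection. The list held 10 genes: Ttr, Kl, Folr1, Enpp2 and Clic6 for the choroid plexus, Prkcd and Tcf7l2 for the thalamus, and Ppp1r1b, Penk and Adora2a for the striatum. A gene was taken where a probe set carried its symbol alone in the platform annotation, which gave 1 probe set each for 8 of the 10 genes among 35382 probe sets. Enpp2 and Adora2a had 0 such probe sets and were not analysed here.

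The mice were C57BL/6 animals that carried TN-XXL, a fluorescent calcium indicator whose calcium-binding part comes from troponin C, and wild type littermates. The titles mark the transgenic samples as +/+, and the RNA came from skeletal muscle, heart muscle and hippocampus. Each genotype had 3 arrays in each tissue, 18 in all. The promoter of the transgene, the age of the mice, any pooling of animals and whether tissues of 1 mouse were used together were not found in the labels. No label names separate animals for the arrays of a group, so the p-values reflect the spread between arrays alone, and that spread may be technical.

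The choroid plexus is the epithelium inside the brain ventricles that secretes cerebrospinal fluid. A fold of it lies along the choroid fissure beside the hippocampus. Transthyretin, the product of Ttr, carries thyroid hormone and retinol-binding protein, and its transcript is among the most abundant of that epithelium. The thalamus lies beneath the hippocampus, and its relay neurons express protein kinase C delta, from Prkcd, and the Wnt effector encoded by Tcf7l2. The medium spiny neurons of the striatum express Ppp1r1b, which encodes the dopamine-regulated phosphatase inhibitor DARPP-32, and those of the indirect pathway express Penk, the precursor of enkephalins. None of the 8 measured genes is exclusive to its region: neurons of the hippocampus also express Kl and Penk, and many cell types outside the brain express Prkcd and Tcf7l2.

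All levels are log2 RMA values, in which a step of 1 is a doubling of signal, and the level of one probe set is not set against that of another. Array medians ran from 2.44 to 2.49 in muscle, 2.61 to 2.63 in heart and 3.68 to 3.71 in hippocampus, and arrays of one group correlated at 0.982 to 0.993 across probe sets. Defining markers matched the tissue labels. All 18 measured hippocampal markers lay above the median probe set in wild type hippocampus, with means from 3.96 to 9.30. The 6 muscle markers had means from 11.43 to 12.13 in wild type muscle, and the 5 measured heart markers from 6.01 to 11.76 in wild type heart.

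In hippocampus, Ttr was high on 1 array of each genotype. It was recorded at 3.25, 2.99 and 4.64 on wild type arrays 1, 2 and 3, and at 3.41, 3.35 and 5.16 on transgenic arrays 1, 2 and 3. Array 3 of each genotype was thus well above the other arrays, and the genotypes overlapped. The distance from the lowest to the highest array was 2.17. On the arrays numbered 1 and 2 Ttr lay below the array medians, so no fold is given. The SD of Ttr within the genotype groups, 0.96, was larger than that of 99.7% of all probe sets. The mean of both arrays numbered 3 was 4.90 against 3.25 for the other arrays, a difference of 1.65. By that difference, which was chosen after the values were seen, Ttr ranked 1 among the probe sets with a single symbol and 2 among all probe sets. Of all probe sets, 5.16% had both arrays numbered 3 above the other hippocampus arrays, while 6.93% had both numbered 1 and 6.2% both numbered 2 above the rest.

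**Figure D1:**
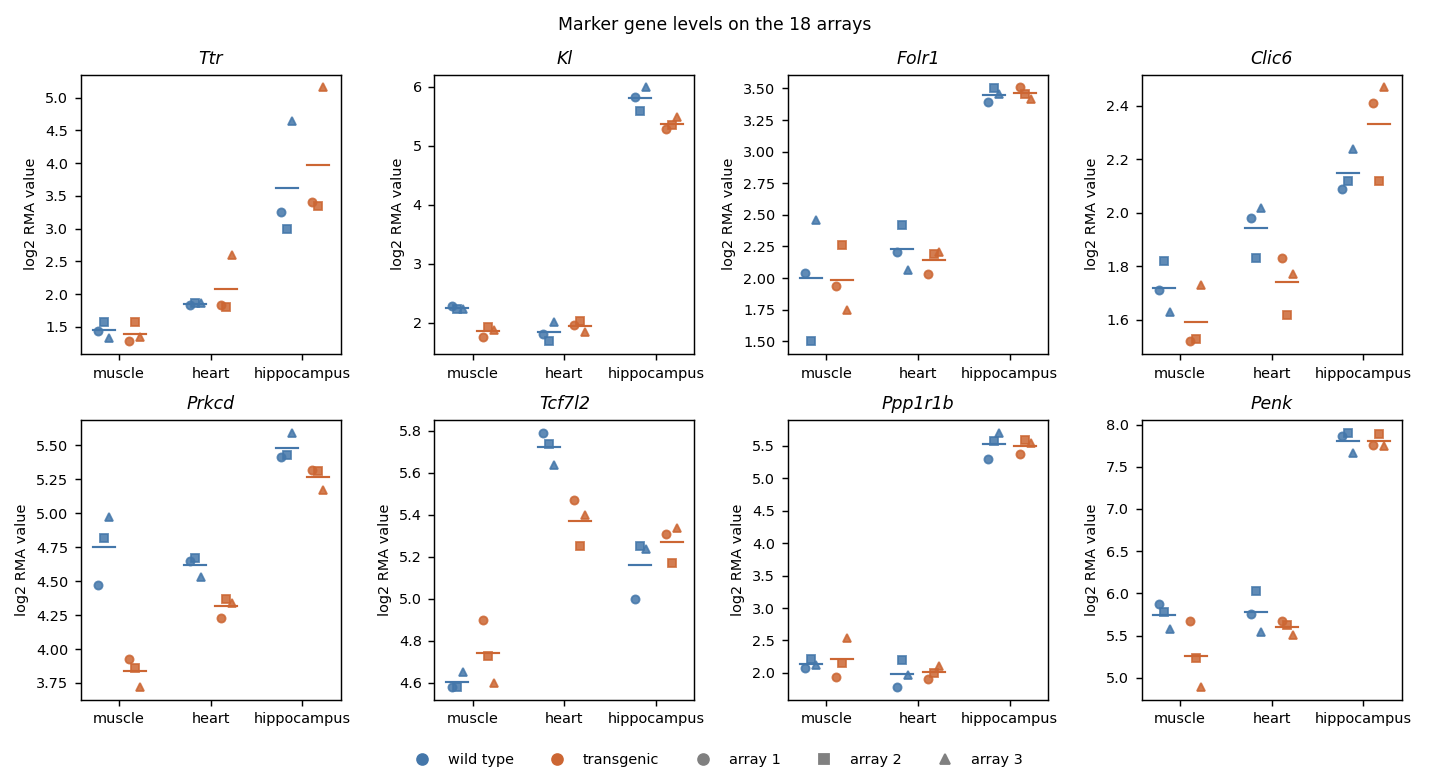
Log2 RMA value (y axis, its range differs between panels) of each of the 8 measured genes on every array, grouped by tissue (x axis). Colours give the genotype, symbols the array number, and horizontal lines the mean of 3 arrays. Ttr on hippocampus array 3 reaches 4.64 in wild type and 5.16 in transgenic samples, while the other hippocampus arrays lie between 2.99 and 3.41.

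Array 3 was also the highest of its genotype for Kl and Clic6, but no other measured choroid plexus member had both arrays numbered 3 above the other arrays. The excess of the arrays numbered 3 over the other arrays was 0.22 for Kl, 0.17 for Clic6 and -0.02 for Folr1. Kl encodes klotho, a co-receptor of fibroblast growth factor 23 that is made by choroid plexus, kidney and neurons. It lay at 5.82, 5.59 and 5.99 on the wild type arrays and 5.29, 5.35 and 5.48 on the transgenic arrays. The groups did not overlap, with every transgenic array below every wild type array. Folr1, the folate receptor that moves folate into the cerebrospinal fluid, had the smallest range of the 8 genes, 0.12. Its values were 3.39, 3.50 and 3.46 in wild type and 3.51, 3.46 and 3.42 in transgenic hippocampus. Clic6, of the chloride intracellular channel family, stood at 2.09, 2.12 and 2.24 in wild type and 2.41, 2.12 and 2.47 in transgenic hippocampus. Folr1 and Clic6 both lay below the median probe set of these arrays.

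A wider list of choroid plexus genes was read beside them. Of 28 such genes 25 were measured, and 10 of these lay above the median probe set in wild type hippocampus. In 3 of the 25, or 12%, both arrays numbered 3 were above the other hippocampus arrays, against the 5.16% of all probe sets. These were Lbp, the gene of a lipopolysaccharide-binding protein, Wfdc2, which encodes a small secreted protein, and the keratin gene Krt18. The excess of the arrays numbered 3 over the other arrays was 0.42 for Lbp, 0.36 for Wfdc2 and 0.07 for Krt18. Over the 25 genes the same difference ran from −0.11 to 0.42 with a median of 0.04. Several genes of the list were picked after their values were seen, to show bright and dim ones. Among those above the median probe set in wild type hippocampus, the difference was −0.06 for the carbonic anhydrase gene Car12. It was −0.04 for Igfbp2, which encodes a binding protein of insulin-like growth factors, and −0.06 for the sulfate transporter gene Slc13a4. Sostdc1, which encodes a secreted inhibitor of bone morphogenetic proteins, had 0.06. The rest of those above that median were Lbp (0.42), Sulf1 (0.13), Cldn1 (0.11), Slc31a1 (0.04), Ace (−0.01) and Kcnj13 (−0.11). Otx2, a transcription factor that the epithelium needs for its identity, ranged from 2.1 to 2.58 over the 6 arrays, Kcne2, a potassium channel subunit gene, from 2.17 to 2.38, and the water channel gene Aqp1 from 2.42 to 2.68. These 3 genes lay far below the array median, where a change could escape detection. The part of choroid plexus tissue in the Ttr values was not tested beyond these levels.

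**Figure D2:**
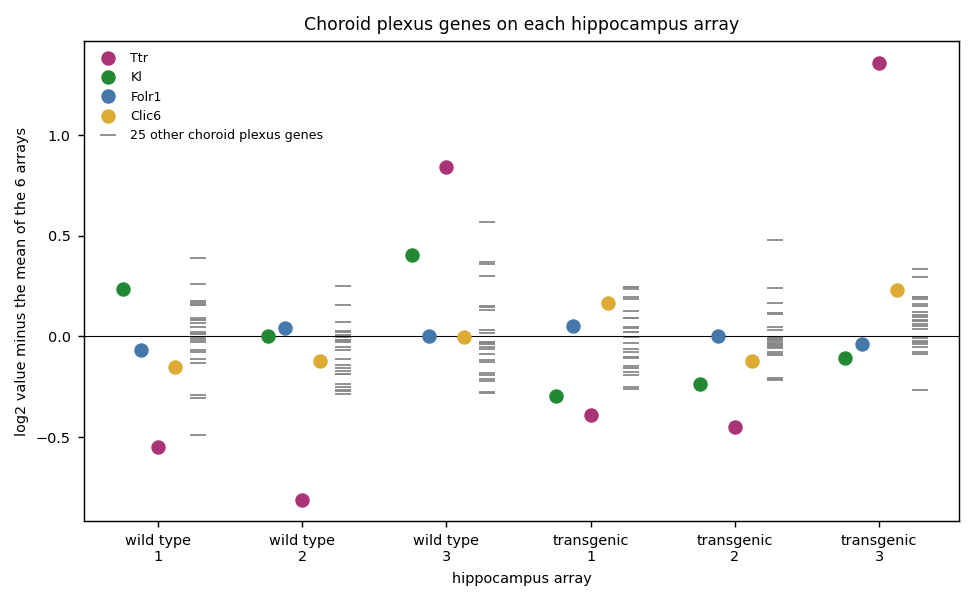
Log2 RMA value of choroid plexus genes minus the mean of that gene over the 6 hippocampus arrays (y axis) on each hippocampus array (x axis). Each point is 1 gene on 1 array. Ttr stands above the other genes on array 3 of both genotypes, and its excess there over the other arrays is 1.65 against −0.11 to 0.42 for the 25 other measured choroid plexus genes.

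The thalamic genes varied little between hippocampus arrays. Prkcd stood at 5.41, 5.43 and 5.59 on the wild type arrays and 5.32, 5.31 and 5.17 on the transgenic arrays. Every transgenic array was below every wild type array, by a narrow margin. Tcf7l2 stood at 5.0, 5.25 and 5.24 in wild type and 5.31, 5.17 and 5.34 in transgenic hippocampus, with overlapping groups. Across the 6 arrays Prkcd and Tcf7l2 did not rise and fall together (Pearson's r −0.33, exact permutation p = 0.521, adjusted p = 0.556 over 3 relations between marker genes; Spearman's rho −0.37, exact permutation p = 0.497, adjusted p = 0.803). Without the arrays at the 2 Prkcd values farthest from the median, r was −0.36, and for deviations from the genotype means it was 0.14. None of 18 further thalamic genes had both arrays numbered 3 highest. Of 7 genes of the neighbouring habenula only the orphan receptor gene Gpr151 did. Such an order was present for 5.16% of all probe sets, so lists this short can show little.

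The striatal genes also varied less than Ttr between hippocampus arrays. The SD of Ppp1r1b within the genotype groups, 0.17, was still larger than that of 63.3% of all probe sets. Ppp1r1b was recorded at 5.30, 5.58 and 5.70 in wild type and 5.38, 5.60 and 5.54 in transgenic hippocampus. Penk was recorded at 7.86, 7.90 and 7.66 in wild type and 7.76, 7.89 and 7.75 in transgenic hippocampus. Both genes overlapped between the genotypes, and Penk was lowest in each genotype on the array numbered 3. Of 24 further striatal genes 1 (4.17%), Scn4b, had both arrays numbered 3 highest, with an excess of 0.25, against 5.16% of all probe sets. The relation between these genes over the 6 arrays was weak (r −0.32, exact permutation p = 0.515, adjusted p = 0.556; rho −0.14, exact permutation p = 0.803, adjusted p = 0.803), with r of −0.57 without the 2 arrays farthest from the median. That of Prkcd with Ppp1r1b had an r of 0.30 (exact permutation p = 0.556, adjusted p = 0.556) and a rho of 0.31 (exact permutation p = 0.564, adjusted p = 0.803), and turned to −0.19 without the farthest arrays. For deviations from the genotype means r was −0.32 for Ppp1r1b with Penk and 0.43 for Prkcd with Ppp1r1b. No relation of Ttr with another member is given, since its 6 arrays fall into separate clusters. The 7 measured genes other than Ttr had ranges from 0.12 to 0.70 over the hippocampus arrays.

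The comparison of transgenic with wild type hippocampus addresses whether expression differed between the genotypes in this tissue. No member differed by limma with Benjamini-Hochberg adjustment over all probe sets, at a threshold of 0.05, and percent called over all probe sets was 0. At an unadjusted p under 0.05 there were 1784 probe sets (5.04%), 1 of them a member, and a fit with array weights called 1 probe set. That member was Kl, whose mean was 5.80 ± 0.20 in wild type and 5.37 ± 0.09 in transgenic hippocampus (SD, n = 3). The log2 difference was −0.43 ± 0.11 (SE; limma unadjusted p = 0.00111, limma adjusted p = 0.529). Prkcd went from 5.48 ± 0.10 (SD, n = 3) to 5.27 ± 0.08 (SD, n = 3), a difference of −0.21 ± 0.11 (SE; limma adjusted p = 1). These were the 2 members whose groups did not overlap, both lower in transgenic samples. Groups that do not overlap were found in 13.3% of all probe sets, with 7.37% lower in transgenic samples.

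For Ttr the group means were 3.63 ± 0.89 in wild type and 3.97 ± 1.03 in transgenic hippocampus (SD, n = 3), so the difference of 0.35 ± 0.44 (SE, limma adjusted p = 1) was smaller than the spread within either genotype. The direction rested on single arrays. Without transgenic array 3 the difference was −0.25, without wild type array 3 it was 0.85, and without both arrays numbered 3 it was 0.26. Clic6 differed by 0.18 ± 0.10, Tcf7l2 by 0.11 ± 0.10, Folr1 by 0.01 ± 0.19, Penk by 0.00 ± 0.16 and Ppp1r1b by −0.02 ± 0.15 (SE; limma adjusted p = 1 for each). For these 5 genes the genotypes overlapped.

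None of the genes of the wider lists passed the adjusted threshold in hippocampus either. Among the 25 choroid plexus genes the differences ran from −0.25 to 0.40 with a median of 0.02, and 1 had an unadjusted p under 0.05. This was Ace, the gene of angiotensin-converting enzyme, at 4.70, 4.57 and 4.62 in wild type and 5.08, 5.0 and 5.03 in transgenic hippocampus (0.40 ± 0.11, SE, limma adjusted p = 0.581). Its groups did not overlap. Among the 18 thalamic genes the differences ran from −0.28 to 0.28 with a median of −0.01, and 2 had an unadjusted p under 0.05. The gene of the receptor activity-modifying protein Ramp3 stood at 3.54, 3.51 and 3.49 in wild type and 3.85, 3.79 and 3.73 in transgenic hippocampus (0.28 ± 0.09, SE, limma adjusted p = 0.775). Synpo2, which encodes an actin-binding protein, differed the other way (−0.28 ± 0.10, SE, limma adjusted p = 0.889). Among 24 of 25 striatal genes measured the median was −0.08, and 3 had an unadjusted p under 0.05. Lrrc10b differed by −0.32 ± 0.14 (SE, limma adjusted p = 0.976). The dopamine receptor gene Drd2 differed by −0.35 ± 0.12 (SE, limma adjusted p = 0.856) and Tac1, the precursor of substance P, by 0.28 ± 0.09 (SE, limma adjusted p = 0.8). Medium spiny neurons of the indirect pathway carry the former and those of the direct pathway the latter.

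**Figure D3:**
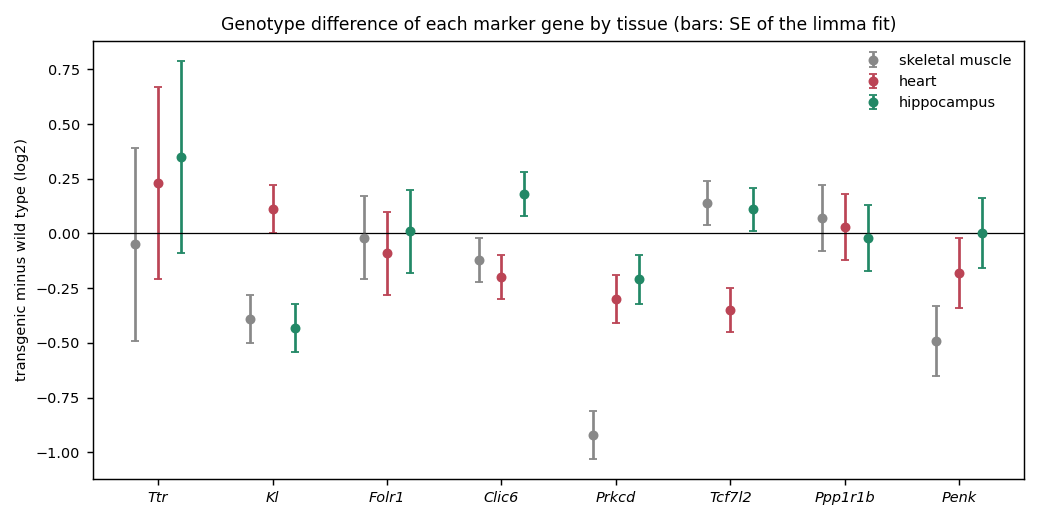
Transgenic minus wild type log2 difference (y axis) of the 8 measured genes (x axis) in muscle, heart and hippocampus. Points are differences between means of 3 arrays and bars their SE from limma. In hippocampus 0 of the 8 genes pass the limma threshold, while in muscle Prkcd (−0.92) and Kl (−0.39) do.

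Muscle and heart served for reference. In muscle limma called 8.15% of all probe sets, 3.86% higher and 4.3% lower in transgenic samples, and 2 of the 8 genes, Prkcd and Kl, both lower. Prkcd stood at 4.47, 4.82 and 4.97 in wild type and 3.93, 3.86 and 3.72 in transgenic muscle. Every transgenic array lay below every wild type array. Such a gap was present for 2 of the 8 genes in muscle, Prkcd and Kl, and for 21.9% of all probe sets, 10.3% in that direction. The mean fell from 4.75 ± 0.26 to 3.84 ± 0.11 (SD, n = 3), a difference of −0.92 ± 0.11 (SE, limma adjusted p = 8.32e-05) or 1.89-fold. It passed the threshold whichever single muscle array was left out, where the difference ran from −1.06 to −0.81, and in a fit of the muscle arrays alone (limma adjusted p = 0.035). Protein kinase C delta acts in many tissues in signalling by diacylglycerol, so in muscle its transcript is no marker of a brain region.

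Kl in muscle lay at 2.28, 2.23 and 2.23 in wild type and 1.77, 1.93 and 1.88 in transgenic samples. All 6 values were below the median probe set of their arrays. The mean fell from 2.25 ± 0.03 to 1.86 ± 0.08 (SD, n = 3), a difference of −0.39 ± 0.11 (SE, limma adjusted p = 0.0337). That call was lost whichever single muscle array was left out (limma adjusted p from 0.0501 to 0.11), in a fit of the muscle arrays alone (limma adjusted p = 0.087) and with array weights (limma adjusted p = 0.0591).

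Penk, as fitted over all probe sets, did not pass in muscle. It stood at 5.88, 5.78 and 5.58 in wild type and 5.67, 5.23 and 4.89 in transgenic muscle, where array 1 overlapped the wild type range (−0.49 ± 0.16, SE, limma adjusted p = 0.0909). Without that array the difference was −0.69 (limma adjusted p = 0.00905), and Penk also passed when dim probe sets were left out (limma adjusted p = 0.0463) or only probe sets with a single symbol were tested (limma adjusted p = 0.0425). The other 5 genes differed by −0.12 (Clic6) to 0.14 (Tcf7l2) in muscle, with limma adjusted p from 0.483 to 0.977.

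In heart limma called 3.19% of all probe sets and 0 of the 8 genes, of which 2 had an unadjusted p under 0.05, as did 15% of all probe sets. Tcf7l2 stood at 5.79, 5.74 and 5.64 in wild type and 5.47, 5.25 and 5.40 in transgenic heart. The groups did not overlap, and the difference was −0.35 ± 0.10 (SE, limma adjusted p = 0.0648). It passed when only probe sets with a single symbol were tested (limma adjusted p = 0.0382) or when dim probe sets were left out (limma adjusted p = 0.0293). Prkcd stood at 4.65, 4.67 and 4.53 in wild type and 4.23, 4.37 and 4.34 in transgenic heart, again without overlap (−0.30 ± 0.11, SE, limma adjusted p = 0.191). The groups were apart in heart for these 2 genes, both lower, and for 18.5% of all probe sets, 9.35% lower. Ttr was recorded at 1.83, 1.86 and 1.86 in wild type and 1.84, 1.80 and 2.60 in transgenic heart. Transgenic array 3 alone was higher, though not above the median probe set of its array. Without that array the difference of 0.23 ± 0.44 (SE, limma adjusted p = 0.884) became −0.03.

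Prkcd was the single member with every transgenic array below every wild type array in each of the 3 tissues, as were 0.376% of all probe sets. Its mean difference over the tissues, an average chosen after the values were seen, was −0.48 ± 0.06 (SE, limma adjusted p = 0.000383), in a comparison that called 5.8% of all probe sets. Kl had a mean difference of −0.23 ± 0.06 (SE, limma adjusted p = 0.033), although in heart it differed the other way, by 0.11 ± 0.11 (SE, limma adjusted p = 0.718) with overlapping groups, and the other 6 genes had limma adjusted p from 0.225 to 0.925. Whether the arrays of different tissues come from the same mice is not known, so the tissues may not be independent. Some endothelial markers fell in the same tissues. Of 9 measured endothelial genes 4 fell in transgenic muscle, where 4.3% of all probe sets did, 2 fell in heart, where 3.19% were called in either direction, and 0 in hippocampus, where 0% were. Of the 5 not called in muscle, Slco1a4 differed by 0.35. The mean of the list was 6.04 to 6.24 on wild type and 5.67 to 5.97 on transgenic muscle arrays, 7.04 to 7.13 and 6.73 to 6.89 in heart, and 6.11 to 6.20 and 6.06 to 6.19 in hippocampus. Its part in the Prkcd result was not tested. In bulk samples fewer cells of a type and less RNA per cell cannot be told apart.

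The genotype difference in hippocampus was compared with the mean of those in muscle and heart as an interaction contrast, which called 1.33% of all probe sets and 0 of the 8 genes, 3 of which had an unadjusted p under 0.05, as did 12% of all probe sets. Prkcd had the smallest adjusted p of them (0.40 ± 0.14, SE, limma adjusted p = 0.209), and Clic6 followed (0.34 ± 0.13, SE, limma adjusted p = 0.259). The contrast for Kl was −0.29 ± 0.13 (SE, limma adjusted p = 0.389).

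The genes of the wider lists that passed in muscle and heart were named after their values were seen. Their counts stand against the 8.15% of all probe sets called in muscle and the 3.19% in heart. In muscle 1 of 25 choroid plexus genes rose, Calml4, which encodes a calmodulin-like protein (0.51 ± 0.13, SE, limma adjusted p = 0.0262). Of the thalamic genes 3 of 18 were called: Amotl1, which encodes a cell junction protein, fell by 0.58 on the log2 scale (limma adjusted p = 0.000823), Plekhg1 fell by 0.50 (limma adjusted p = 0.0483), and the homeobox gene Shox2 rose by 0.59 (limma adjusted p = 0.00185). Of the striatal genes 4 of 24 were called. The transcription factor gene Foxp1 and the ubiquitin ligase gene Sh3rf2 fell, by 0.43 and 0.68, while the phosphodiesterase gene Pde10a and Strip2 rose by 0.47 and 0.54. Calml4 lay below the median probe set on every muscle array, as did Shox2 and Strip2 on the wild type muscle arrays. In heart 1 choroid plexus gene rose (Abca4, 0.41, limma adjusted p = 0.0433), 0 thalamic genes were called, and 2 striatal genes fell (Drd2, −0.52, limma adjusted p = 0.0306, and Sh3rf2, −0.84, limma adjusted p = 0.000839). Leaving out 1 array of the tissue at a time, the muscle counts ran from 0 to 1 for choroid plexus genes that rose, 1 to 2 for thalamic genes that fell and 0 to 2 for striatal genes that rose, and the heart counts from 0 to 1 for choroid plexus genes that rose and 1 to 3 for striatal genes that fell. The Abca4 call was also lost with heart arrays alone, median centring, another prior or array weights. With heart arrays alone 0 striatal genes fell. With muscle arrays alone 0 choroid plexus, 0 thalamic and 0 striatal genes rose, while 1 thalamic and 1 striatal gene fell. Plekhg1 has 2 probe sets, and the one with the higher mean stands for it.

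Sequences upstream of the start site are shown for the 2 genes that were lower in transgenic muscle to show the letters next to their starts. RefSeq promoters (build GRCm38.p6) matched 3 of the 10 listed genes, Kl, Prkcd and Tcf7l2. Each run below covers 250 bases before the start, 5′ to 3′ on the strand of the gene, and capitals mark a match to a searched motif. The motifs, searched on both strands, were the E-box CACGTG, the ROR element core AGGTCA and the D-box TTATGTAA, 3 elements of circadian transcription chosen with earlier results of these data known.
Kl, chr5:150952357-150952606, plus strand: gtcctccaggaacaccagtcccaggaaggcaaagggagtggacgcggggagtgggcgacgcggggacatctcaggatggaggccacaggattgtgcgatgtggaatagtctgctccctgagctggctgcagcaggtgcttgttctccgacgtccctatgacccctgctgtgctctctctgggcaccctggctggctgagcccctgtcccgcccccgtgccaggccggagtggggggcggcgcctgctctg
Prkcd, start 1, chr14:30626209-30626458, minus strand: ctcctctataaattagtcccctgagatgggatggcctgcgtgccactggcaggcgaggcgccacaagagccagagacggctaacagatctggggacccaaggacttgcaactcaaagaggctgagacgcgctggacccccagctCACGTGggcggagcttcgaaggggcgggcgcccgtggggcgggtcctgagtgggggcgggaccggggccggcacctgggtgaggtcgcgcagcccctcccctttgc
Prkcd, start 2, chr14:30610311-30610560, minus strand: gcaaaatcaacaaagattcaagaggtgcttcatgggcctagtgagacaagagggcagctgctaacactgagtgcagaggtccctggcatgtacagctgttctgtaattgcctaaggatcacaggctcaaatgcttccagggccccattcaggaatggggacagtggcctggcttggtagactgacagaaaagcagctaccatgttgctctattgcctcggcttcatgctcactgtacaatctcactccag
The Kl stretch held 66.8% G and C and 13 CpG dinucleotides, with none of the motifs. At its first start Prkcd had 67.6% G and C, 18 CpG and 1 E-box that begins 106 bases before the start. Its second listed start had 50.8% G and C, 1 CpG and none of the motifs. Neither start of Tcf7l2 had a match. The shares of all 32851 promoters in the table with a match were 6.0% for the E-box, 14.0% for the ROR core and 0.8% for the D-box. A match describes these letters and was not tested as a binding site.

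The levels in wild type tissues place the genes against muscle and heart. On the deposited scale limma called 78.2% of all probe sets between hippocampus and muscle, 70.1% higher and 8.1% lower in hippocampus, and 76.8% between hippocampus and heart, 67.3% higher and 9.46% lower. Of the 8 genes, 8 were called higher than in muscle, and 6 higher and 1 lower than in heart. The median of all probe sets was 0.67 higher in hippocampus than in muscle and 0.61 higher than in heart, and centring or quantile normalisation moved it to −0.58 and −0.47 or to −0.09 and −0.07. Kl was 3.55 higher in hippocampus than in muscle (limma adjusted p = 5.2e-14) and 3.96 higher than in heart (limma adjusted p = 1.56e-14). After centring these differences were 2.29 and 2.87, and after quantile normalisation 2.28 and 2.88. Ppp1r1b was 3.39 higher than in muscle and 3.55 higher than in heart, which became 2.13 and 2.46 after centring and 2.14 and 2.42 after quantile normalisation. Both genes lay below the array medians in muscle and heart, so no fold is given. Penk was 2.06 and 2.03 higher as deposited, 0.80 and 0.94 after centring and 0.96 and 1.15 after quantile normalisation. All 3 genes kept their calls under both other scalings.

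Ttr was 2.18 higher in hippocampus than in muscle (limma adjusted p = 0.00036) and 1.78 higher than in heart (limma adjusted p = 0.00191). After median centring the differences were 0.92 (limma adjusted p = 0.07) and 0.69 (limma adjusted p = 0.17), and after quantile normalisation 1.33 (limma adjusted p = 0.00858) and 0.88 (limma adjusted p = 0.0747). The call against muscle was thus lost under centring alone, and that against heart under both. Folr1 was 1.45 and 1.22 higher as deposited, and 0.19 and 0.13 after centring. Prkcd was higher in hippocampus than in muscle by 0.72 and than in heart by 0.86 as deposited, with differences of −0.54 and −0.23 after centring and −0.79 and −0.33 after quantile normalisation. Clic6 likewise turned from 0.43 to −0.83 against muscle and from 0.21 to −0.88 against heart after centring. Tcf7l2 turned from 0.56 to −0.70 against muscle after centring, and was lower than in heart under each scaling (−0.56 as deposited, −1.65 after centring, −1.76 after quantile normalisation).

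**Figure D4:**
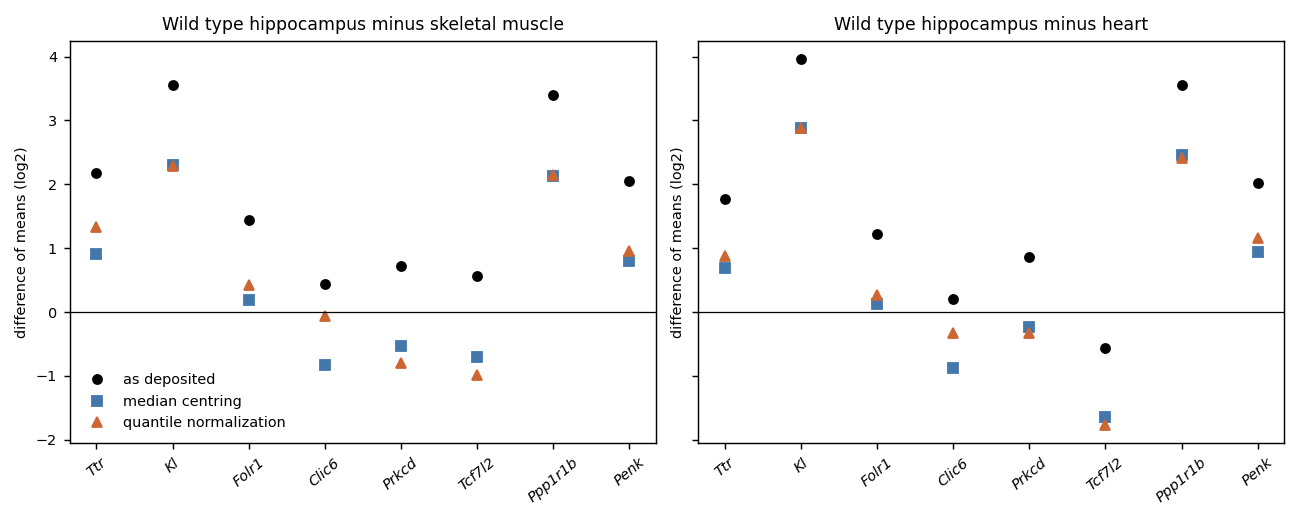
Wild type hippocampus minus muscle and hippocampus minus heart log2 differences (y axis) of the 8 measured genes (x axis) on the deposited scale, after centring each array on its median, and after quantile normalisation. Kl, Ppp1r1b and Penk stay above 0 under all 3 scalings, as do Ttr and Folr1, which do not keep all their calls. Prkcd and Clic6 change sign, and so does Tcf7l2 against muscle.

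The genes with the profile most like Ttr over the 6 hippocampus arrays were named by Pearson's r among probe sets with a single symbol and an SD of at least 0.3, as a description of 6 arrays that carry no p. They were Uqcrh, a subunit gene of mitochondrial complex III (r 0.944), 2610318N02Rik (0.931), the muscle intermediate filament gene Des (0.907), Etnppl, an astrocyte-enriched ethanolamine phosphate lyase gene (0.872), and Lce3c (0.862). Their rank correlations with Ttr ran lower, from 0.49 for 2610318N02Rik to 0.83 for Des. The Ttr values fall into separate clusters, so each r with Ttr mostly restates that both arrays numbered 3 were high. Prkcd and Ppp1r1b had SDs of only 0.14 and 0.15 over these arrays, below the 0.3 asked of the genes set beside them. For Prkcd the 5 were Dhrsx (0.952), Krt6b, Stra6, Six3os1 and Myo18b (0.923). For Ppp1r1b they were Cyp27a1 (0.936), Olfr744, Dppa3, Lrrc14b and Lrrc20 (0.89).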

How the data were processed

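Total RNA of 18 samples was hybridised to Affymetrix arrays, 1 colour and 1 array per sample. The authors deposited log2 values per probe set, and the submitters' processing notes name RMA and R 2.10.0. RMA corrects background, quantile normalises and sums probes, and which arrays were normalised together is not given in the sources used here. The number of arrays, not depth, limits precision. Of 35382 probe sets, 21153 have a single gene symbol, 1867 several and 12362 none in the platform annotation.

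A limma 3.58.1 fit (R 4.3.3) with 1 mean for each of the 6 groups gave every genotype and tissue contrast, with Benjamini-Hochberg adjustment over all probe sets and a threshold of 0.05, two-sided. The named genes are the members, the 5 most alike genes for Ttr, Prkcd and Ppp1r1b, and up to 4 genes of each marker list with the smallest p in hippocampus; others are stated as chosen after their values were seen. The members and lists were chosen with earlier results of these data known. Relations used exact two-sided permutation tests. Alternatives were the tissue's arrays alone, the replicate number as a block, 2 scalings, another prior, array weights, filters, thresholds and leaving out arrays. Simulated data for the hippocampus comparison, run on 35382 probe sets, used normal noise with the spread pooled over all groups. Of changes on the log2 scale, 14 of 50 of 0.5 and 40 of 50 of 1 were called, with 4 false calls. The same data also held 50 changes of 1.5 and 50 of 2, which ease the adjusted threshold. In the real comparison 0 probe sets were called, so these rates are likely too high for a lone change. Python 3.11.15 with matplotlib 3.10.9 drew the figures.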

Additional observations from a re-analysis of the deposited data

Results flagged for a closer look

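Limma's interaction contrast set the genotype difference in hippocampus against the mean of those in muscle and heart. Among the members and marker lists it called 0 members and 4 list genes. These were 1 of 18 measured thalamic, 1 of 24 striatal, 1 of 9 endothelial and 1 of 5 heart genes. No gene of the other lists was called, and the share of all probe sets called was 1.33%. For Ramp3, a thalamic list gene, the contrast was 0.52 ± 0.11 (SE, limma adjusted p = 0.0243), with differences of 0.28 in hippocampus, −0.24 in muscle and −0.25 in heart. For Sh3rf2, a striatal list gene, it was 0.83 ± 0.14 (SE, limma adjusted p = 0.00765), with differences of 0.08 in hippocampus, −0.68 in muscle and −0.84 in heart. For Tek, the endothelial receptor gene of the angiopoietins, it was 0.75 ± 0.13 (SE, limma adjusted p = 0.0092), with 0.16, −0.72 and −0.48. For Nppa, the atrial natriuretic peptide gene of the heart list, it was −0.79 ± 0.18 (SE, limma adjusted p = 0.049), with −0.09, 0.04 and 1.36 in the same order of tissues. Sh3rf2 in hippocampus (wild type mean 2.23) and Ramp3 in muscle (wild type mean 2.13) lay below the array medians, where a change could escape detection. Groups of 3 arrays were not tested for a single array far from the others.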

How the results depend on the processing

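In hippocampus 0 members were called under every alternative run. Penk was 0.005 with median centring and 0.004 with array weights, which called 1 probe set, and Ppp1r1b was 0.002 with array weights and 0.055 without both arrays numbered 3 (an alternative chosen after seeing the data). Leaving out single hippocampus arrays, Ttr ran from −0.248 to 0.852, Folr1 from −0.018 to 0.036, Ppp1r1b from −0.131 to 0.072 and Penk from −0.077 to 0.041. In muscle the probe sets called were 838 with the muscle arrays alone and 1606 at a threshold of 0.01. The members called lower there were 1 with muscle arrays alone, another prior, array weights or a threshold of 0.01, and 1 to 2 without single arrays. Folr1 in muscle was 0.022 with array weights. Without single muscle arrays Ttr ran from −0.137 to 0.015, Folr1 from −0.269 to 0.21 and Ppp1r1b from −0.088 to 0.204. In heart the probe sets called were 36 with the heart arrays alone, 395 and 1786 at thresholds of 0.01 and 0.10, and 593 to 989 without single arrays, with 1 member called lower at 0.10 or over probe sets with a single symbol. Without single heart arrays Ttr ran from −0.029 to 0.371, Folr1 from −0.174 to 0.007 and Ppp1r1b from −0.073 to 0.131. The interaction contrast called 880 probe sets with array weights, 913 without dim probe sets, 720 over single symbols and 247 to 464 without single arrays, where Ttr ran from −0.339 to 0.762, Folr1 from −0.048 to 0.191 and Ppp1r1b from −0.18 to 0.022. Against muscle, 3 members were called higher and 3 lower after centring (Clic6 −0.826, Prkcd −0.537, Tcf7l2 −0.699), 4 higher and 2 lower after quantile normalisation (Prkcd −0.792 and Tcf7l2 −0.99, with Clic6 at −0.067 not called), and 15467 probe sets were called without dim ones and 18401 over single symbols. Against heart, 3 were called higher and 2 lower after centring (Clic6 −0.878 and Tcf7l2, with Prkcd at −0.227 not called), 3 higher and 3 lower after quantile normalisation (Clic6 −0.323, Prkcd −0.327 and Tcf7l2, with 17223 probe sets called), and 15073 probe sets were called without dim ones. Filters test fewer probe sets; the cause of the other changes was not tested.

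Samples with the same replicate number did not deviate together over all probe sets (r from −0.05 to 0.05, other pairs −0.04 to 0.06). Such correlations are dominated by the noise of single arrays, so whether the numbers pair the samples is not known. With the replicate number as a block, limma called 0 probe sets in hippocampus, 2734 in muscle and 1016 in heart, and Penk joined the members lower in muscle (adjusted p = 0.0329). With that block and only the arrays of the tissue, 0 probe sets and 0 members were called in each tissue (Prkcd in muscle, adjusted p = 0.142). No member has a further probe set, so averaging probe sets gave no value. Of the 10 planned relations between members, 5 with Ttr were not computed, 2 could not be had without Enpp2 or Adora2a, and the other 3 kept their sign under both scalings. RMA signals below the array median, as for Clic6, limit what small differences can be seen.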

Other observations

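Apart from Ttr, the probe sets with a single symbol that had both hippocampus arrays numbered 3 highest and the largest excess there, picked after their values were seen, were led by Etnppl, the gene of an astrocyte-enriched ethanolamine phosphate lyase. It stood at 4.64, 4.54 and 5.69 in wild type and 4.44, 4.87 and 5.35 in transgenic hippocampus, an excess of 0.89. Uqcrh (0.82), Mrfap1 (0.61), 2610318N02Rik (0.60), Frmd6 (0.59), Mxi1 (0.58) and Ppcs (0.57) followed. Every one of these 7 excesses was smaller than the 1.65 of Ttr. The probe sets of Uqcrh, Mrfap1, 2610318N02Rik and Mxi1 lay below the median probe set on all hippocampus arrays.

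Of the markers of other tissue near the hippocampus, 0 passed limma's adjusted threshold between the genotypes there. The mean over 12 ependymal genes was 2.88 to 2.98 on wild type and 2.88 to 2.95 on transgenic arrays, and Tmem212, a gene of ciliated cells, differed by 0.27 (limma adjusted p = 0.913), while Mia differed by −0.35 (limma adjusted p = 0.946). Over 15 meningeal genes the mean was 4.80 to 4.91 and 4.82 to 4.99. Over 13 oligodendrocyte genes it was 6.54 to 6.73 and 6.66 to 6.95, and Mag, the gene of a myelin adhesion protein, differed by 0.33 (limma adjusted p = 0.968). Over 10 neocortical genes it was 5.50 to 5.60 and 5.54 to 5.55. The 7 habenular genes differed by −0.20 to 0.05. Of 18 measured hippocampal markers 4 had a limma unadjusted p under 0.05, as did 5.04% of all probe sets. Their median difference over the 18 was −0.1. Among these markers Tdo2, a tryptophan dioxygenase gene of dentate granule cells, differed by −0.51 ± 0.12 (SE, limma adjusted p = 0.469).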
